A study of Homo sapiens with 4 samples.

Results

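The heat shock proteins and the DNAJ co-chaperones were taken from the deposited counts by gene symbol. They were the HSPA, HSPB, HSPD, HSPE and HSPH genes, the DNAJA, DNAJB and DNAJC genes, and the HSP90 genes HSP90AA1, HSP90AB1 and HSP90B1. The rule used no measured value, and it found 73 genes among the 59050 gene symbols of the series. By family these were 15 HSP70 genes (HSPA), 1 HSP110 gene (HSPH1), 3 HSP90 genes, 2 mitochondrial chaperonin genes (HSPD1 and HSPE1), 8 small heat shock protein genes (HSPB), 4 DNAJA, 13 DNAJB and 27 DNAJC genes. Poly(A) RNA was sequenced from cells labelled HepG2, an established line of human liver cancer cells. The cells were grown in DMEM with 10% fetal bovine serum in every group. The untreated group (0 h) and the group given doxorubicin at 1 ug/ml for 24 h had 2 libraries each. Doxorubicin damages DNA and so activates p53, and the comparison asks which of these genes differ in mRNA level between the groups. The groups are labelled 0 h and 24 h, so an effect of the drug and one of time cannot be told apart. One label of the treated libraries reads p53-miRNA, and the groups here follow the titles and the treatment protocol. The labels do not say that the replicates came from separate cultures, so the p-values measure the spread between these libraries, which may be technical.

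Molecular chaperones bind proteins that are not yet folded or have lost their fold. HSP70 proteins hold such a protein in cycles of ATP hydrolysis, the DNAJ proteins bring it to HSP70 and speed up the hydrolysis through their J domain, and HSP90 proteins complete the folding of many kinases and receptors. Small heat shock proteins keep unfolded proteins from clumping without ATP, and the chaperonin HSPD1 with its lid HSPE1 encloses proteins in mitochondria. After heat or other damage to proteins, the factor HSF1 binds heat shock elements in the promoters of many of these genes. Chaperones of the endoplasmic reticulum (ER) are switched on by a separate response to unfolded proteins there.

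The 4 libraries held between 27572740 and 36272180 counts, and the members took 1.13% (untreated replicate 2) to 1.59% (untreated replicate 1) of them, with 1.36% and 1.44% in the treated libraries. A level of 3 counts, taken as the limit of detection, was between 0.0827 and 0.109 CPM by library, where CPM is the count scaled to the column total, and this limit covers counting error only. Untreated replicate 2 stood apart from the other libraries. Counts were found on 31258 genes in it against 25734 to 27609 in the other 3, and histone genes took 0.331% of its counts against 0.0459% to 0.0565%. Over the tested members, the median distance of the untreated replicates from each other was 0.74 in log2 units, and that of the treated replicates was 0.23. The identity of the cells was also checked. Of 16 liver genes, the summed level was 1.35 and 5.96 CPM in the untreated libraries and 17.1 and 20.1 CPM in the treated libraries, with at most 3 counts of ALB (albumin) in any library, which goes against the label HepG2. Most of the liver sum in the treated libraries was FGG, at 9.76 and 14.0 CPM. The 5 simple epithelial genes summed to 5899 and 4752 CPM in untreated and 3527 and 3025 CPM in treated cells. KRT8 and KRT18 made up nearly all of this sum, and KRT19, EPCAM and CDH1 were at most 0.727 CPM in any library. The 6 squamous genes summed to 1183 and 1950 CPM in untreated and 1768 and 1481 CPM in treated cells. KRT17 and SFN led this list, and KRT5, KRT6A and TP63 were at most 0.450 CPM in any library. For the 6 fibroblast genes the sums were 972 and 883 against 1289 and 1113 CPM. VIM led that list, while COL1A2 had at most 2 counts in any library. The 6 blood genes summed to at most 0.589 CPM, with CD68 and HBB at 0. The epithelial and fibroblast lists were thus split between high and nearly absent genes, and their sums assign no cell type. The part of these differences in the results was not tested, and in bulk RNA fewer cells of a type and less RNA per cell cannot be told apart.

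Promoters are shown first for members that the results turn on. The sequences are from RefSeq on GRCh38.p14 and run from 250 bases before to 50 bases after the annotated start site, on the strand of the gene. In the first 5, capitals mark heat shock elements. The form of 2 units is GAANNTTC, which reads the same on both strands, and the form of 3 units is GAANNTTCNNGAA or, on the other strand, TTCNNGAANNTTC, so that a match of 3 units always holds one of 2 units. HSPA6 (heat-inducible HSP70), HSPA8 (constitutive HSP70) and HSP90AA1 are shown as holders of 3 units, and HSPB1 and HSPB8 as small heat shock genes with 2 units. In HSPA5, the ER member of HSP70, capitals mark the ER stress element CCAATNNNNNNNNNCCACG. HSPA6 lies at chr1:161524290-161524589 on the plus strand, HSPA8 at chr11:123062087-123062386 on the minus strand, HSP90AA1 at chr14:102086995-102087294 on the minus strand, HSPB1 at chr7:76302423-76302722 on the plus strand, HSPB8 at chr12:119178681-119178980 on the plus strand and HSPA5 at chr9:125241294-125241593 on the minus strand.
HSPA6: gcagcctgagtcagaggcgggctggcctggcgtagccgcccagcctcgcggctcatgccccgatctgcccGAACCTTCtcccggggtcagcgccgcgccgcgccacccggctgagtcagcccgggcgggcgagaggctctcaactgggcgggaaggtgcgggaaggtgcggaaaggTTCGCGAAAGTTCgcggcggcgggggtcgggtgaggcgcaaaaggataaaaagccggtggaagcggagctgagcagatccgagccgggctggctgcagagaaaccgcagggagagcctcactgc
HSPA8: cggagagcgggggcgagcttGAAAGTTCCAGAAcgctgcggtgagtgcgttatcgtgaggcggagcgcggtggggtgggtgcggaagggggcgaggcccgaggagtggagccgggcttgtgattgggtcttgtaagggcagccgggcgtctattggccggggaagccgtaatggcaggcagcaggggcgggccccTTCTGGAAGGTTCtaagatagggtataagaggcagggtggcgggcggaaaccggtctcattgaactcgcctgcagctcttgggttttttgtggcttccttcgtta
HSP90AA1: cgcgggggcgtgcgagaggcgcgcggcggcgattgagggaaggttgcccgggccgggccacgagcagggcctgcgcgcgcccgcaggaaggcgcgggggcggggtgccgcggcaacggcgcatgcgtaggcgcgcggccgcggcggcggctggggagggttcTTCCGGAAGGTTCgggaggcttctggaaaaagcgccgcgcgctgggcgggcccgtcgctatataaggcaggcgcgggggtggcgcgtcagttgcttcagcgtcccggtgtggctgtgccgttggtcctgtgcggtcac
HSPB1: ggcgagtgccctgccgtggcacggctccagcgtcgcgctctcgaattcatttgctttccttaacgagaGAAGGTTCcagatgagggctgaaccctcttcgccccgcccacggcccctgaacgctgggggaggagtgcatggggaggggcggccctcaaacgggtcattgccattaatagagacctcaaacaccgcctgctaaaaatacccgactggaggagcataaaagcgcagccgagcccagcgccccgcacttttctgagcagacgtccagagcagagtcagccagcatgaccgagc
HSPB8: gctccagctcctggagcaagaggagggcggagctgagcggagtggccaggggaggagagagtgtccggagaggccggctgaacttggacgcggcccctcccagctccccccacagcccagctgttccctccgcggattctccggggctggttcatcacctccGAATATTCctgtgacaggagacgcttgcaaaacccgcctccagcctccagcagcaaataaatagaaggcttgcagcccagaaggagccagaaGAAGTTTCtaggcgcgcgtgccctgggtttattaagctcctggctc
HSPA5: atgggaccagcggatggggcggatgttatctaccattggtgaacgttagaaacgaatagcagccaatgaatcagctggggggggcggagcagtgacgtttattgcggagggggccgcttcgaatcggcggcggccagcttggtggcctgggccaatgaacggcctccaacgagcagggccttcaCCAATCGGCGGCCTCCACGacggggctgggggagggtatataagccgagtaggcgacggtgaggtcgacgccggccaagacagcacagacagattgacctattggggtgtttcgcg

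A promoter was found for 64 of the 73 members, 84 promoters in all. The heat shock element of 3 units was in 7 of these promoters (8.33%), against 0.490% of all 35116 promoters. The 7 genes were HSPA6, HSPA8, HSP90AA1, HSP90AB1, HSPD1, DNAJA1 and DNAJB6. The element of 2 units was in 18 promoters (21.4%) of 17 genes, against 6.77% of all promoters. The ER stress element was in 0.0769% of all promoters, and among the members it was found in HSPA5 and HSP90B1 (GRP94, the HSP90 of the ER). A match is a stretch of letters and not a measured binding site. Counted in bases from the start site, the match of 3 units began at -74 in HSPA6, at -88 in HSP90AA1 and at -55 and -230 in HSPA8, and the match of 2 units in HSPB1 began at -182.

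**Figure D1:**
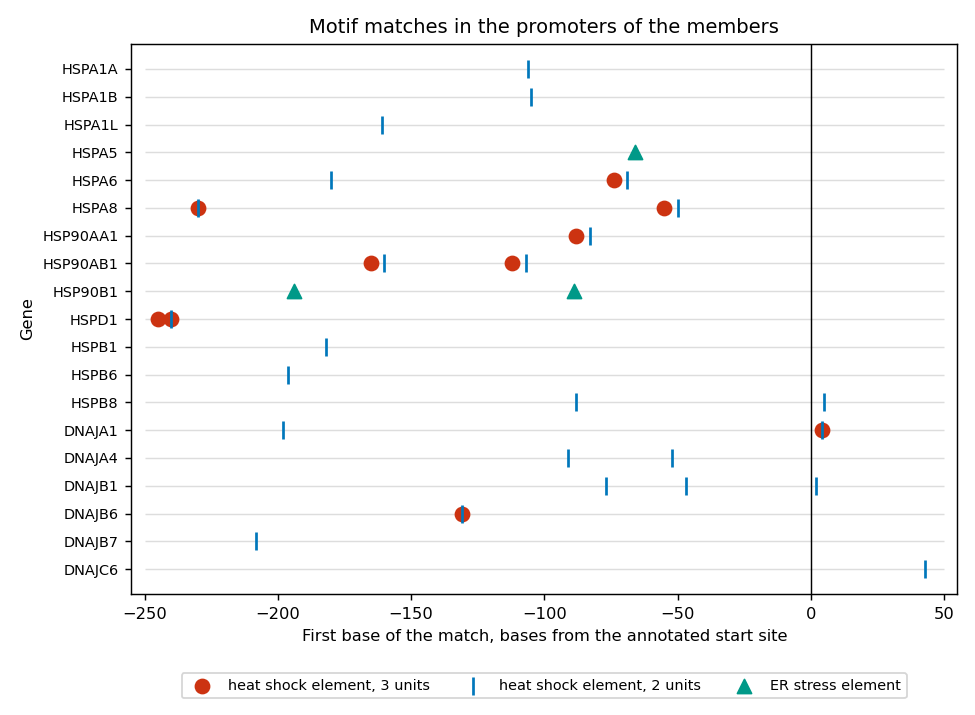
Matches of the heat shock element of 3 units (red circles) and 2 units (blue lines) and of the ER stress element (green triangles) in RefSeq promoters of the members that hold one, by gene. The horizontal axis gives the first base of the match in bases from the annotated start site (black line); the 7 genes with 3 units are HSPA6, HSPA8, HSP90AA1, HSP90AB1, HSPD1, DNAJA1 and DNAJB6.

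The levels were led by a few abundant genes. Between genes, levels were compared as CPM per kb of exon, with CPM from the column totals. HSP90AB1 (constitutive cytosolic HSP90) stood at 1024, 516, 698 and 723 CPM per kb in the untreated and then the doxorubicin replicates, each in the order of their numbers, which is kept below. HSPB1 (HSP27) stood at 894, 1515, 717 and 638 CPM per kb. HSP90AA1 (stress-inducible HSP90) stood at 776, 480, 632 and 769 CPM per kb. These 3 genes held the first 3 ranks in every library, in changing order, so their order was not larger than the spread between libraries. HSPA8 was the fourth in every library, at 717, 262, 582 and 515 CPM per kb. HSPD1, HSPA5 (BiP), DNAJA1 and HSP90B1 completed the 8 genes that were among the 10 highest in every library. At the other end, 11 members had fewer than 10 counts in every library and 14 had at least 100 CPM in every library.

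The heat-inducible pair HSPA1A and HSPA1B was almost without counts. HSPA1A (GRCh38 chromosome 6, 31815543 to 31817946) had 7, 3, 6 and 9 counts, and HSPA1B (chromosome 6, 31827738 to 31830254) had 3, 2, 1 and 7 counts. HSPA1L, a relative next to them, was listed at 0 counts in every library. LSM2, a gene nearby with a part in RNA processing in every cell, was also listed at 0, so the counts here set no bound on the level of HSPA1L, HSPA1A or HSPA1B. Per length, HSPA1A and HSPA1B together stood at between 0.000145 and 0.000459 of HSPA8. The counts of this pair are also uncertain because 73.7% of the 50-base stretches of HSPA1A transcripts are also in transcripts of another gene (HSPA1B), and reads that fit both may have been left out by the authors' counting. DNAJA3 (mitochondrial J protein, chromosome 16, 4425805 to 4456775) had 2, 1, 0 and 1 counts. Nearby, NMRAL1 and CORO7 were at 0 and HMOX2 had 4, 2, 0 and 2 counts, so the counts of DNAJA3 may also set no bound on its level. These neighbours were picked from 15 protein-coding genes within 250 kb. Of the 15, 5 (33.3%) had fewer than 10 counts in every library, against 27.5% of all protein-coding genes. The other members under 10 counts were HSPA7, HSPB2, HSPB3, DNAJB3, DNAJB8, DNAJC5B and DNAJC28.

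Summed by family as CPM of the column total, both doxorubicin libraries lay between the untreated libraries for HSP70, HSP90, the chaperonin pair and DNAJA. Both lay below them for the small heat shock proteins on this scale and with TMM factors, and above them for DNAJB and DNAJC on this scale but not with TMM factors. The HSP70 genes summed to 4183, 2469, 3785 and 3717 CPM, a mean of 3326 ± 1212 (SD, n = 2) in untreated and 3751 ± 47.6 (SD, n = 2) in treated cells. The HSP90 genes summed to 6662, 4093, 5228 and 5987 CPM. The ratio of the group means, doxorubicin over untreated, was 1.13 for HSP70 (1.01 with TMM factors) and 1.04 for HSP90 (0.934 with TMM factors), and without untreated replicate 2 it was 0.897 and 0.842. For both families the low library was untreated replicate 2, and both treated libraries lay between the untreated ones. The chaperonin pair summed to 1361, 487, 1007 and 1103 CPM, with a ratio of 1.14 that became 0.775 without untreated replicate 2 and 2.17 without untreated replicate 1. HSP110 (HSPH1) had 268, 329, 226 and 298 CPM and a ratio of 0.876, with overlapping groups. With TMM factors its ratio was 0.784 and both treated libraries were lower.

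The small heat shock proteins summed to 1025, 1986, 856 and 771 CPM, a mean of 1506 ± 679 (SD, n = 2) in untreated and 813 ± 60.3 (SD, n = 2) in treated cells. Both treated libraries were below both untreated libraries. The ratio was 0.540, and 0.793 without untreated replicate 2. The DNAJA genes summed to 527, 409, 480 and 523 CPM with a ratio of 1.07, or 0.960 with TMM factors. The DNAJB genes summed to 851, 741, 935 and 927 CPM, with a ratio of 1.17 that was 1.09 without untreated replicate 2. With TMM factors the DNAJB sums were 901, 779, 914 and 851, so that the groups overlapped, with ratios of 1.05 and, without untreated replicate 2, 0.980. The DNAJC genes summed to 1044, 785, 1057 and 1117 CPM, with a ratio of 1.19 that was 1.04 without untreated replicate 2. With TMM factors the DNAJC sums were 1106, 826, 1033 and 1025, where both treated libraries lay between the untreated ones, with ratios of 1.07 and, without untreated replicate 2, 0.930. All members together summed to 15921, 11299, 13574 and 14443 CPM, with a ratio of 1.03, or 0.923 with TMM factors. Without untreated replicate 2 these ratios were 0.880 and 0.786. On CPM of the column total the ratio was 1.24 without untreated replicate 1, so its direction depended on which untreated library was kept. With 2 libraries against 2, an exact permutation test cannot give a two-sided p below 1 in 3, so no test was made on these sums.

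**Figure D2:**
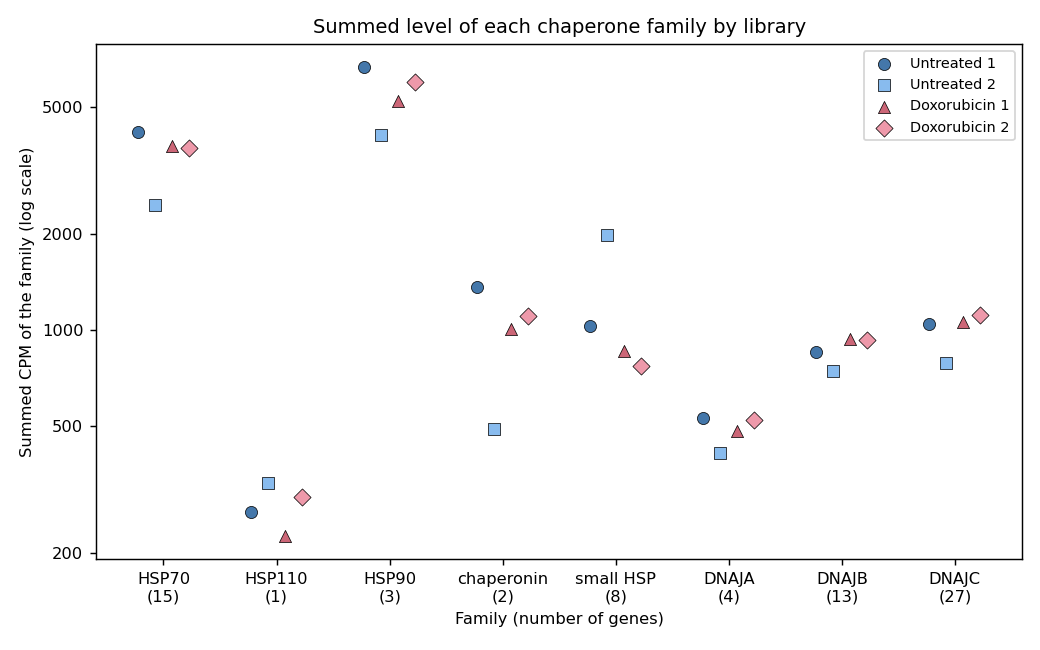
Summed level of each chaperone family in CPM of the column total (vertical axis, log scale) by family (horizontal axis, number of genes in brackets), with 1 point for each of the 4 libraries and no bars. Untreated replicate 2 was the lowest library in HSP70, HSP90, the chaperonin pair, DNAJA, DNAJB and DNAJC and the highest in HSP110 and the small heat shock proteins.

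Of the 73 members, 61 passed the filter on low counts and were tested among 17479 genes by the quasi-likelihood test of edgeR. The 12 others were the 11 with fewer than 10 counts and DNAJB13, which had 0, 16, 3 and 1 counts. A call needed an adjusted p-value under 0.05 with a change of 1 or more in log2 units. By this rule 0 members and 0% of all genes were called, and the smallest adjusted p-value of a member was 0.773 in edgeR. Without adjustment, 1 member, HSPB1, had a p-value under 0.05 and was lower in doxorubicin, against 1.73% of all genes that were lower, while 0 members were higher, against 2.66% of all genes. Other tests at the same thresholds called 0 members too, against 0.515% of all genes by DESeq2, 0.217% by the exact test of edgeR, 0.366% by its likelihood ratio test and 0.114% with the replicate number as a block. The median log2 fold change (doxorubicin over untreated) was -0.00 over the members and 0.01 over all genes, with 28 members above 0 (45.9%, against 50.8% of all genes) and 33 below. The range over the members was -2.36 to 0.88.

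The separation of the groups was near that of all genes. In 13 members (21.3%) both treated libraries were above both untreated libraries, and this was so in 21.3% of all genes. In 9 members (14.8%) both were below, and this was so in 17.9% of all genes. The 13 were HSPA6, HSPA13, DNAJB2, DNAJB7, DNAJB14, DNAJC1, DNAJC3, DNAJC10, DNAJC12, DNAJC16, DNAJC18, DNAJC24 and DNAJC25. The 9 were HSPA14, HSPH1, HSPB1, HSPB8, HSPB9, DNAJA2, DNAJB11, DNAJC8 and DNAJC9. Libraries were compared here with TMM factors, and as CPM of the column total HSPH1, HSPB8 and DNAJA2 overlapped between groups. Untreated replicate 2 was the lowest library in 31 members (50.8%, against 42.4% of all genes) and the highest in 18 (29.5%, against 39.4%).

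**Figure D3:**
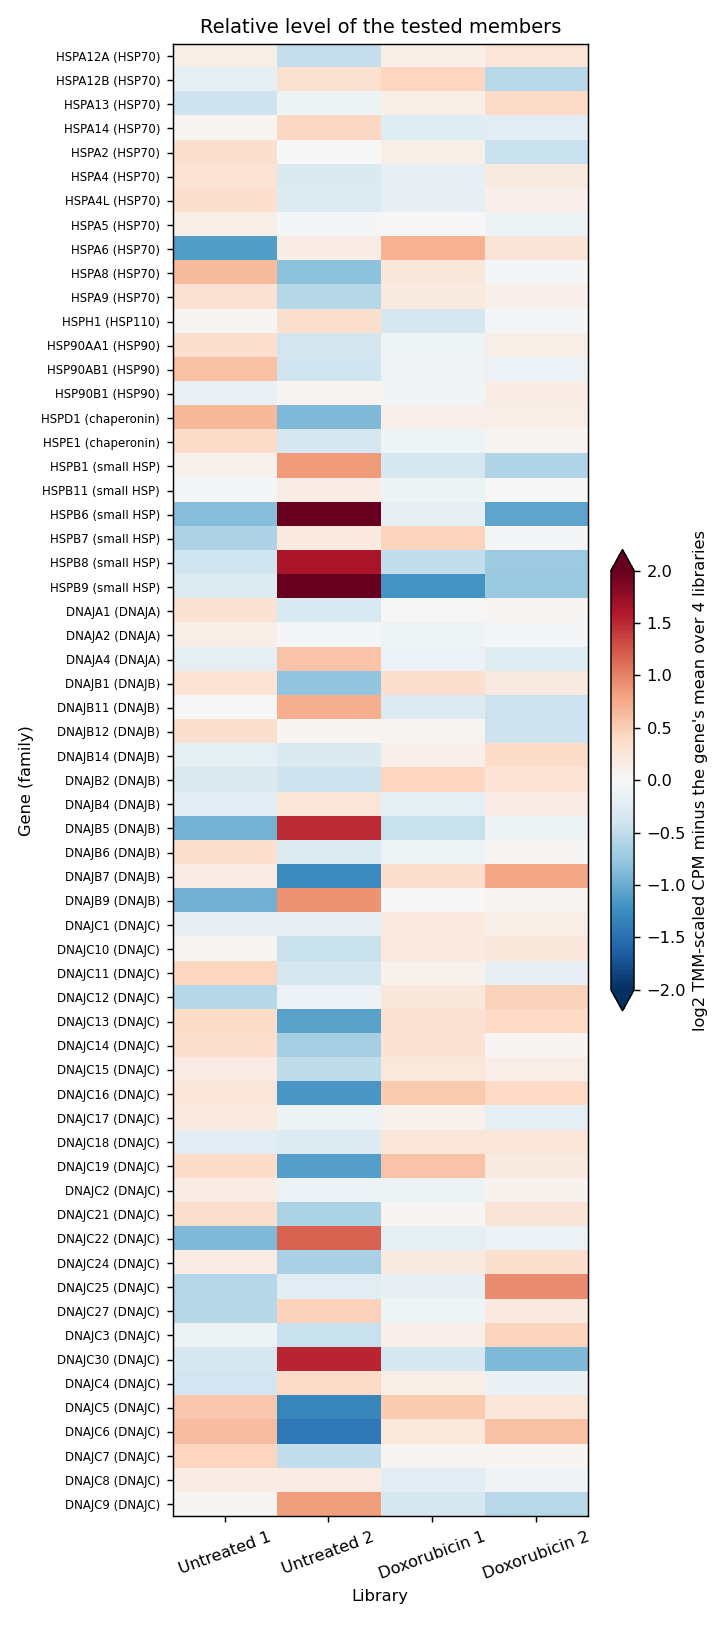
Level of the 61 tested members (rows, family in brackets) in the 4 libraries (columns), as log2 of TMM-scaled CPM minus the mean of the gene over the libraries, with red above and blue below the mean and the colour ending at 2 on either side. Untreated replicate 2 holds the strongest colours, as in HSPB6, HSPB8, HSPB9, DNAJB5 and DNAJC30 (high) and DNAJC5 and DNAJC6 (low).

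For single members, levels are given below as CPM scaled by TMM factors, the scale of the fold changes. Among the small heat shock proteins, HSPB1 (chromosome 7, 76302673 to 76304295), which binds unfolded proteins and actin, stood at 937, 1581, 694 and 580.1 CPM. Both treated libraries were below both untreated ones. The log2 fold change of HSPB1 was -0.98 (adjusted p = 0.773 by the edgeR quasi-likelihood test, standard error 0.35). Without untreated replicate 2 it was -0.55, with an adjusted p-value of 0.0994 in edgeR, and HSPB1 was lower in treated cells in every alternative that was run. Between 75.5% and 86.2% of the summed level of the family was HSPB1, and 4.22% of the 50-base stretches of its transcripts occur in another gene.

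HSPB8 (HSP22, chromosome 12, 119171555 to 119224855) works with BAG3 in the removal of damaged proteins by autophagy. It stood at 115, 466, 107 and 90.8 CPM, so that untreated replicate 2 was high and the other 3 libraries were close to each other. The log2 fold change of HSPB8 was -1.55 (adjusted p = 0.773 by edgeR, standard error 0.66), and -0.20 without untreated replicate 2. HSPB9, a small heat shock gene known from testis, stood at 0.643, 3.62, 0.342 and 0.467 CPM, with a log2 fold change of -2.36 (standard error 1.04). HSPB6 (HSP20, a muscle protein) stood at 0.497, 3.76, 0.799 and 0.433 CPM, with -1.72 (standard error 1.07). For both, untreated replicate 2 was the one high library, and without it the log2 fold changes were -0.67 for HSPB9 and 0.35 for HSPB6. HSPB7 stood at 2.95, 5.19, 6.22 and 4.50 CPM, with overlapping groups. HSPB11, which encodes an intraflagellar transport protein (IFT25), stood at 31.04, 35.5, 29.9 and 32.1 CPM. The median log2 fold change of the 6 tested small heat shock genes was -1.27, and -0.10 without untreated replicate 2. CRYAB (HSPB5), a small heat shock protein that the symbol rule leaves out, was the pathway gene with an unadjusted p-value under 0.05. It stood at 0.906, 0.694, 7.22 and 4.67 CPM, with a log2 fold change of 2.88 (adjusted p = 0.773 by edgeR, standard error 0.62). DESeq2 gave 2.84 with an adjusted p-value of 0.00735, past both thresholds, as were 0.515% of all genes in DESeq2. In edgeR the log2 fold change of CRYAB was 3.16 without untreated replicate 1 and 2.73 without untreated replicate 2. The exact and likelihood ratio tests of edgeR gave adjusted p-values of 0.114 and 0.0631.

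**Figure D4:**
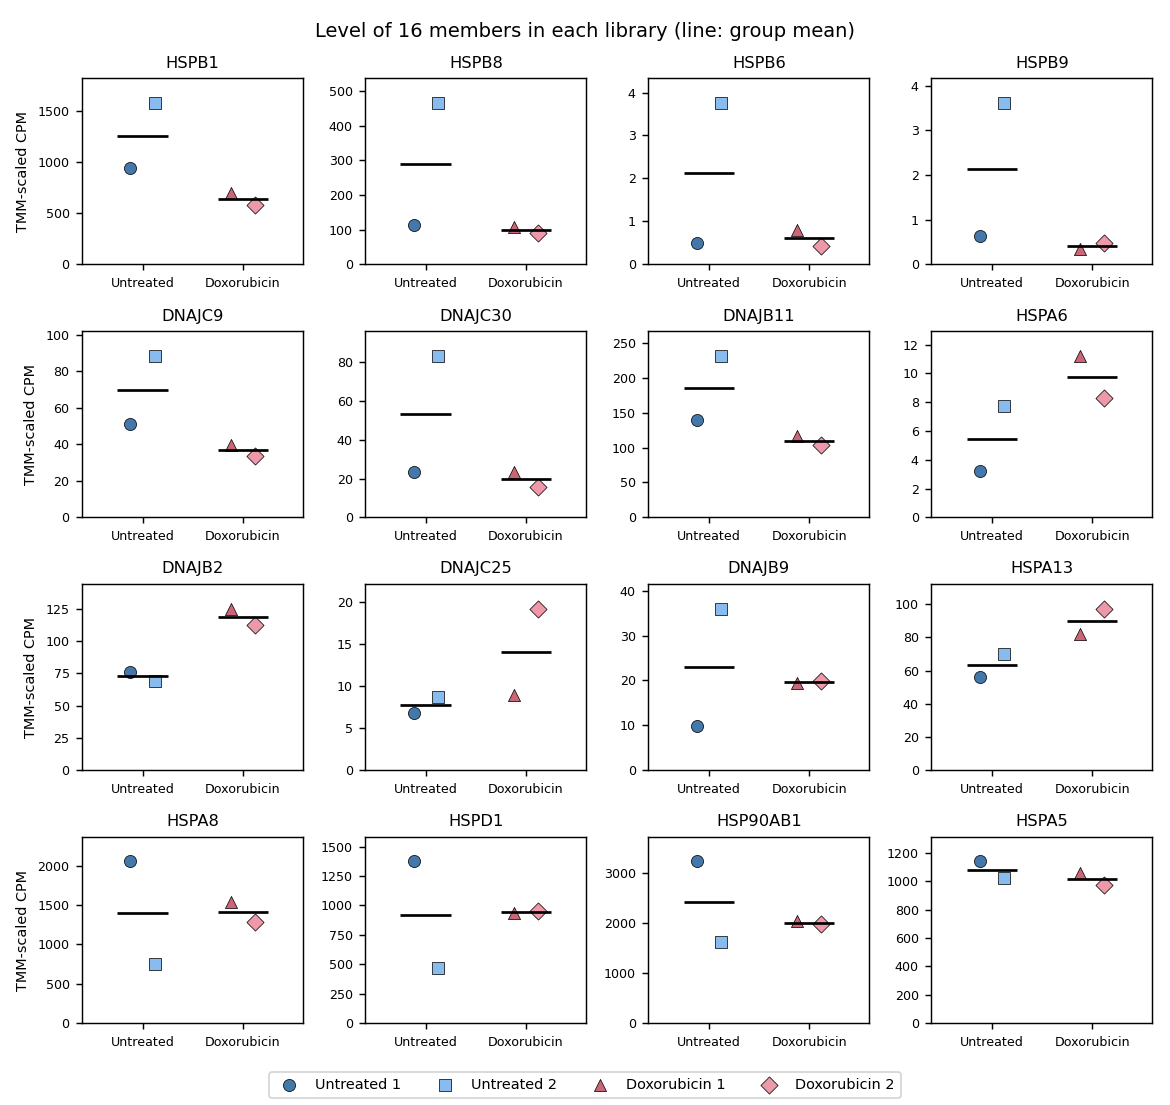
TMM-scaled CPM (vertical axes, from 0) of 16 members in the 2 untreated and 2 doxorubicin libraries, with 1 point for each library and a line at the group mean. HSPB1 was lower in both treated libraries, HSPB8, HSPB6, HSPB9 and DNAJC30 had 1 high untreated library, and HSPA8 and HSPD1 had treated libraries between the untreated ones.

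Among the HSP70 genes, HSPA6 (HSP70B', chromosome 1, 161524540 to 161526894), a strictly heat-inducible member, stood at 3.19, 7.71, 11.2 and 8.30 CPM. Both treated libraries were above both untreated ones, with doxorubicin replicate 2 close to untreated replicate 2. For HSPA6 the log2 fold change was 0.86 (adjusted p = 0.773 by edgeR, standard error 0.60). Without untreated replicate 2 it was 1.63 (standard error 0.35) and HSPA6 was called, with an adjusted p-value of 0.000215 in edgeR. Of the 50-base stretches of its transcripts, 45.8% are also in another gene (HSPA7, a near-identical pseudogene), which had 2, 6, 9 and 2 counts, so the counts of HSPA6 are uncertain. HSPA13 (an HSP70 of the ER) stood at 56.2, 70.2, 82.4 and 97.4 CPM, with a log2 fold change of 0.51 and an adjusted p-value of 0.773 in edgeR. HSPA14, which works at the ribosome, stood at 65.1, 84.4, 53.6 and 54.3 CPM, with a log2 fold change of -0.47, and -0.26 without untreated replicate 2.

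The abundant HSP70 genes overlapped between groups. HSPA8 (chromosome 11, 123057489 to 123063230), which also uncoats clathrin vesicles, stood at 2052, 745, 1537 and 1278 CPM. The fold change of HSPA8 on the log2 scale was 0.01 (standard error 0.50), -0.53 without untreated replicate 2 and 0.98 without untreated replicate 1, so 1 library set the direction. HSPA5 (chromosome 9, 125234853 to 125241382), the ER chaperone that senses unfolded proteins, stood at 1141, 1026, 1059.8 and 976 CPM, with a log2 fold change of -0.09 (standard error 0.26). Within each library the ratio of HSPA5 to HSPA8 per length, which no scaling changes, was 0.379, 0.938, 0.470 and 0.521. HSPA9 (mortalin, of mitochondria) stood at 667, 368, 622 and 588 CPM, with 0.23. HSPA4, which exchanges the nucleotide of HSP70, stood at 327, 221, 242 and 305 CPM, with -0.00. Its relative HSPA4L stood at 95.4, 62.3, 67.0 and 80.3 CPM, with -0.10, HSPA12A at 24.6, 16.3, 24.6 and 26.9 CPM, and HSPA2 (a testis member) and HSPA12B at 0.567 to 2.66 CPM. HSPH1, an HSP110 that does the same work as HSPA4, stood at 284, 348, 221 and 274 CPM. Both treated libraries were lower on this scale, but the groups overlapped as CPM of the column total. The log2 fold change of HSPH1 was -0.35 (standard error 0.30), -0.18 without untreated replicate 2 and -0.16 without doxorubicin replicate 1.

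Of the HSP90 genes, HSP90AB1 (chromosome 6, 44246166 to 44253888) stood at 3235, 1622, 2037 and 1979.95 CPM. Its log2 fold change was -0.27 (standard error 0.38), and -0.67 without untreated replicate 2, with an adjusted p-value of 0.0233 in edgeR and a size under the threshold of 1. HSP90AA1 (chromosome 14, 102080742 to 102139699) stood at 3188, 1962, 2399 and 2741 CPM, with -0.00 (standard error 0.32). The ratio of HSP90AA1 to HSP90AB1 per length was 0.758, 0.930, 0.906 and 1.06, and untreated replicate 2 lay between the treated libraries. These genes share 16.6% (HSP90AB1) and 11.6% (HSP90AA1) of their 50-base stretches with other transcripts, mostly copies. HSP90B1 stood at 639.6, 735, 680 and 782 CPM, with 0.09 (standard error 0.27). The chaperonin HSPD1 (HSP60, chromosome 2, 197486584 to 197516737) stood at 1373, 470.2, 934 and 957 CPM. The treated libraries lay between the untreated ones, with a log2 fold change of 0.04 (standard error 0.52), -0.52 without untreated replicate 2 and 1.08 without untreated replicate 1. Its lid HSPE1 stood at 70.5, 43.2, 51.7 and 57.0 CPM, with -0.07, and the ratio of HSPD1 to HSPE1 per length was 5.24, 2.93, 4.86 and 4.51. Of the 50-base stretches of HSPE1 and HSPD1 transcripts, 12.6% and 7.04% are also in other genes, so this ratio is uncertain.

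Among the DNAJA and DNAJB co-chaperones, DNAJB1 (HSP40, the main stress-inducible partner of HSP70) stood at 398, 189, 416 and 369.9 CPM. The low library was untreated replicate 2. The fold change of DNAJB1 on the log2 scale was 0.42 (standard error 0.42), -0.01 without untreated replicate 2 and 1.12 without untreated replicate 1. DNAJA1, a relative with a heat shock element of 3 units, stood at 418, 278, 341 and 353 CPM, with -0.00. The ratio of DNAJB1 to DNAJA1 per length was 0.321, 0.229, 0.411 and 0.353. This ratio was higher in both treated libraries. DNAJA2 stood at 108, 96.9, 92.8 and 95.3 CPM, DNAJA4 at 33.7, 57.4, 35.6 and 32.8 CPM and DNAJB4 at 50.8, 70.5, 52.6 and 65.9 CPM, with log2 fold changes of -0.12, -0.41 and -0.03.

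DNAJB2 (HSJ1, a J protein that sends clients to the proteasome, chromosome 2, 219279342 to 219286898) had the smallest unadjusted p-value of the members that were higher in treated cells. It stood at 76.4, 69.5, 125 and 113 CPM, and the gap between the groups was larger than the spread within either. For DNAJB2 the log2 fold change was 0.71 (adjusted p = 0.773 by edgeR, standard error 0.31) and 0.65 without untreated replicate 2. DNAJB9 (ERdj4, chromosome 7, 108569867 to 108574850), an ER co-chaperone of HSPA5, stood at 9.85, 36.02, 19.4 and 19.9 CPM. Both treated libraries lay between the untreated libraries. Its log2 fold change was -0.22 (standard error 0.66), 1.01 without untreated replicate 2 with an adjusted p-value of 0.0130 in edgeR, and -0.80 without untreated replicate 1 with 0.00351, so its direction depended on which untreated library was kept. DNAJB11 (ERdj3, chromosome 3, 186567403 to 186585800) stood at 139, 232, 116 and 104 CPM, lower in both treated libraries, with -0.75 (adjusted p = 0.773 by edgeR, standard error 0.37), -0.32 without untreated replicate 2 and -1.01 without untreated replicate 1, where edgeR gave an adjusted p-value of 2.49e-05. DNAJB5 stood at 3.89, 21.1, 5.53 and 6.97 CPM, with -0.99, and 0.70 without untreated replicate 2. DNAJB7 stood at 0.789, 0.292, 0.884 and 1.20 CPM, with 0.88 (standard error 0.68), which was the highest of the members, on few counts. It was 0.40 without untreated replicate 2 and 1.87 without untreated replicate 1, where it was called (adjusted p-value 0.0179 in edgeR).

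The DNAJC genes are a mixed family that shares little but the J domain. Their median log2 fold change was 0.30 over 25 tested genes, with 16 above 0, and 0.01 without untreated replicate 2. DNAJC9 (chromosome 10, 73183362 to 73247255), a chaperone of histones, stood at 51.0, 88.6, 39.6 and 33.5 CPM. It was lower in both treated libraries, with a log2 fold change of -0.93 (adjusted p = 0.773 by edgeR, standard error 0.41) and -0.47 without untreated replicate 2. Of the 50-base stretches of DNAJC9 transcripts, 15.4% are also in other genes, so its counts are uncertain. DNAJC30 (chromosome 7, 73680918 to 73683453), a mitochondrial protein, stood at 23.3, 83.6, 23.4 and 15.9 CPM, with -1.44 (standard error 0.67), and -0.23 without untreated replicate 2, the one high library. DNAJC25 (chromosome 9, 111631334 to 111654351) stood at 6.78, 8.70, 8.90 and 19.2 CPM. The high library was doxorubicin replicate 2, and the others were close. Its log2 fold change was 0.86 (standard error 0.55), 1.06 without untreated replicate 2 with an adjusted p-value of 0.0142 in edgeR, and 0.25 without doxorubicin replicate 2. Its transcripts share 11.5% of their 50-base stretches with another gene. DNAJC3 (P58IPK, a J protein of the ER) stood at 38.4, 30.2, 43.9 and 55.6 CPM, with 0.54. DNAJC12, a partner of the aromatic amino acid hydroxylases, stood at 3.36, 4.57, 5.82 and 6.83 CPM, with 0.68.

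Several DNAJC genes had untreated replicate 2 as the one low library. DNAJC5 (cysteine string protein) stood at 171, 47.8, 170.1 and 139 CPM, DNAJC6 (auxilin, which uncoats clathrin vesicles) at 24.9, 6.03, 18.7 and 24.4 CPM, DNAJC13 at 47.6, 17.6, 45.6 and 48.8 CPM, DNAJC16 at 18.1, 6.80, 21.9 and 20.2 CPM and DNAJC19 (of mitochondrial protein import) at 25.0, 9.02, 28.9 and 22.0 CPM. Their log2 fold changes were between 0.47 and 0.75, and without untreated replicate 1 they were between 1.49 and 1.91. Without untreated replicate 2, the low library, they were -0.13 for DNAJC5, -0.19 for DNAJC6, 0.0022 for DNAJC13, 0.23 for DNAJC16 and 0.040 for DNAJC19. DNAJC22 went the other way and stood at 3.13, 13.0, 5.11 and 5.33 CPM.

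Without untreated replicate 2, 62 members and 18356 genes were tested, and the lone untreated library was assumed to vary like the treated ones. Of the members, 3 were called as higher (HSPA6, DNAJB9 and DNAJC25; 4.84%), against 4.44% of all genes. A p-value under 0.05 without adjustment was found for 14 members (22.6%), against 19.1% of all genes, 9 of them higher and 5 lower. The 5 lower were HSP90AB1, HSPA8, HSPD1, HSPB1 and DNAJB12. The log2 fold change was above 0 in 30 members (48.4%), against 54.3% of all genes, with a median of -0.07 over the members and 0.05 over all genes. Without untreated replicate 1 in its place, 18 members (29.0%) were called, 8 higher and 10 lower, against 44.4% of all genes. HSPA6, DNAJB9 and DNAJC25 were not among these 18.

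**Figure D5:**
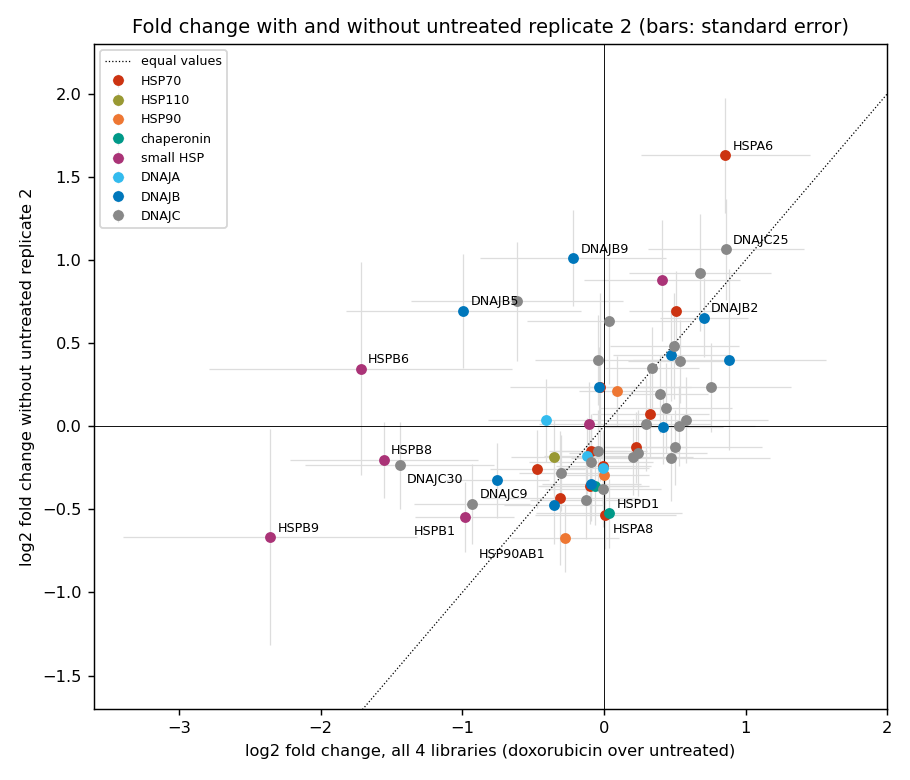
Log2 fold change, doxorubicin over untreated, of the 61 tested members with all 4 libraries (horizontal axis) and without untreated replicate 2 (vertical axis), coloured by family, with bars of 1 standard error from edgeR and a dotted line of equal values. The small heat shock genes HSPB8, HSPB9 and HSPB6 move toward or past 0 without that library, HSPA6 moves from 0.86 to 1.63 and DNAJB9 from -0.22 to 1.01.

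By response, a list was taken of 14 cytosolic and mitochondrial members of the heat shock response (11 tested). In it, constitutive genes such as HSPA8 stand beside strictly inducible ones. The list had a median log2 fold change of -0.00, with 4 above and 7 below 0, and -0.27 without untreated replicate 2. The ER chaperones (8 genes, all tested) had a median of 0.21 with 5 above 0, and 0.28 with 6 above 0 without that library. The mitochondrial chaperones (9 genes, 7 tested) had a median of 0.04, and -0.23 without it. The 7 members with a heat shock element of 3 units had a median of -0.00, and -0.35 without untreated replicate 2, against -0.00 and -0.01 for the 49 tested members with a promoter but no such element.

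Other genes of the pathway were taken as 5 lists of 44 genes, of which 43 were tested. The quasi-likelihood test of edgeR called 0 of them on all 4 libraries, while DESeq2 called CRYAB, against 0.515% of all genes. In edgeR 1 had an unadjusted p-value under 0.05 (CRYAB), 11 were above 0 and 32 below, and the median log2 fold change was -0.27, against 0.01 over all genes. With TMM factors, 23 of the 43 genes were lower and 3 were higher in treated cells without overlap, against 17.9% and 21.3% of all genes. As CPM of the column total, many of the 23 overlapped between groups, as in STIP1, while HSPBP1, AHSA1 and CCT5 did not. The counts by list below also use TMM factors. The 14 cofactors of HSP70 had a median of -0.25 with 8 lower without overlap, as in HSPBP1 and, with TMM factors only, STIP1. The 10 cofactors of HSP90 had a median of -0.29 with 7 lower, as in AHSA1, and the 11 other chaperones, among them the cytosolic chaperonin CCT, had a median of -0.41 with 6 lower. STIP1 (HOP), which links HSP70 to HSP90, stood at 609.9, 469, 425 and 425 CPM with TMM factors. As CPM of the column total STIP1 stood at 575, 445, 435 and 462, and the groups overlapped. AHSA1, which speeds up HSP90, stood at 253, 218, 191 and 177 CPM. CCT5, a subunit of the cytosolic chaperonin, stood at 1258, 1139, 828 and 819 CPM. The 4 regulators, HSF1 among them, had a median of -0.01 and the 4 other J proteins 0.34. Without untreated replicate 2, 36 of the 43 genes were below 0, with a median of -0.24. STIP1, HSPBP1, AHSA1 and CCT5 were named after their values were seen, and none had an unadjusted p-value under 0.05 in edgeR.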

How the data were processed

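RNA-seq of 2 untreated and 2 doxorubicin-treated libraries was used. The authors deposited raw read counts per gene, one table for each library, without normalization. According to their methods, reads were filtered with FastQC and Cutadapt, mapped with HISAT2 and counted with HTSeq, and edgeR was used for testing, and the headers name GENCODE release 31 on GRCh38. The strand setting and the handling of reads that fit several genes are not given in the sources used here.

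Genes were joined by symbol. CPM was the count over the column total. Low genes were removed by filterByExpr, libraries were scaled by TMM (factors of 0.944, 0.951, 1.02 and 1.09), and groups were compared by the quasi-likelihood test of edgeR 4.0.16 (its newer form, R 4.3.3) with Benjamini-Hochberg adjustment over all 17479 genes. The thresholds of the authors' methods were used for calls, an adjusted p-value under 0.05 with a change of 1 or more in log2 units. Alternatives were the exact and likelihood ratio tests, DESeq2 1.42.0, other normalizations and filters, a block on the replicate number and the removal of each library. Lengths, coordinates and shared 50-base stretches came from GENCODE 44 on the same build. Promoters came from RefSeq. Python 3.11.15 with pandas 2.3.3, NumPy 2.4.6 and Matplotlib 3.10.9 was used. The common dispersion was 0.236.

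Members and gene lists were chosen with earlier results of these data known. Named members were all HSPA, HSPH1, HSP90, HSPD1 and HSPE1 genes, HSPB1, DNAJA1 to 4, DNAJB1, DNAJB4, DNAJB9, DNAJB11 and DNAJC3, those called in any fit or with an unadjusted p-value under 0.05, and the 5 with the largest rise, fall, distance of untreated replicate 2 or change without it. HSPB11 and the genes listed without overlap were added after their values were seen, as was the ER stress element. Protein sequences were not used here.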

Additional observations from a re-analysis of the deposited data

How the results depend on the processing

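The count of called members was 0 in the quasi-likelihood fit, with DESeq2, the exact and likelihood ratio tests, RLE factors, library size alone, a prior count of 2, both other filters and the replicate block, and 0 to 18 when single libraries were left out (18 without untreated replicate 1, 3 without untreated replicate 2, and 0 without either doxorubicin replicate). Members with an unadjusted p-value under 0.05 numbered 1 in the quasi-likelihood fit of edgeR, 3 with the exact test, 3 with the likelihood ratio test, 4 with DESeq2, 3 with no filter, and 0 to 35 when single libraries were left out. In each of these other tests and with no filter HSPB1, HSPB8 and HSPB9 were among them, and DESeq2 added DNAJC30. The labels give both groups the same replicate numbers, but the deviations of same-numbered libraries had a correlation of 0.0219 over all genes and -0.13 over the members, so the numbers were not taken as pairs. With the replicate block, 20 genes (0.114%) and 0 members were called, and 3 members (HSPB1, HSPB8 and HSPB9) had an unadjusted p-value under 0.05. Log2 fold changes near 0 changed sign most easily. The sign changes below are those of the members named by rule. Other members turned too, such as HSPB11 (0.055), DNAJB6 (0.069) and DNAJC7 (0.15) with library size alone. With library size alone the sign turned for HSPA12B (0.12), HSPA4 (0.16), HSPA4L (0.063), HSPA5 (0.065), HSP90AA1 (0.16), HSPE1 (0.094), DNAJA1 (0.16), DNAJA2 (0.037) and DNAJB4 (0.13). With no filter the sign turned for HSPA12B (0.038), HSPA4 (0.044), HSP90AA1 (0.040), DNAJA1 (0.043) and DNAJB4 (0.043). With the replicate block the sign turned for HSPA4 (0.014), HSP90AA1 (0.036), DNAJA1 (0.026) and DNAJB9 (0.054). With DESeq2 the sign turned for HSPA8 (-0.035) and HSPD1 (-0.0063). With RLE factors the sign turned for HSPA8 (-0.035) and HSPD1 (-0.0064). Over the libraries left out, the sign turned for HSPA12B (-0.57 to 0.40), HSPA4 (-0.24 to 0.38), HSPA4L (-0.36 to 0.31), HSPA5 (-0.15 to 0.057), HSPA8 (-0.53 to 0.98), HSPA9 (-0.13 to 0.79), HSP90AA1 (-0.30 to 0.46), HSP90AB1 (-0.67 to 0.38), HSPD1 (-0.52 to 1.08), HSPE1 (-0.36 to 0.40), DNAJA1 (-0.25 to 0.39), DNAJA2 (-0.18 to 0.027), DNAJA4 (-0.68 to 0.035), DNAJB1 (-0.0065 to 1.12), DNAJB4 (-0.18 to 0.24), DNAJB9 (-0.80 to 1.01), DNAJC6 (-0.19 to 1.91), DNAJB5 (-1.69 to 0.70), DNAJC22 (-1.25 to 0.75), HSPB6 (-2.51 to 0.35) and DNAJC5 (-0.13 to 1.76). The chaperonin ratio went from 1.14 to 2.17 without untreated replicate 1 (0.775 to 2.17 over the libraries left out), the small heat shock ratio from 0.540 to 0.793 without untreated replicate 2 (0.410 to 0.793 over the libraries left out) and the DNAJB ratio from 1.17 to 1.05 with TMM scaling. Library size alone moved the median of all genes to 0.17 and that of the members to 0.16, and DNAJB2, not HSPB1, was then the member with a p-value under 0.05. Of the values for single members named by rule, 483 kept their direction and their side of the thresholds, and 53 changed direction. The rest kept their direction and gained a call when an untreated library was left out. The cause was not tested. Fits without 1 library assume that the lone sample varies like the other group. The limit is 2 libraries in each group and a biological coefficient of variation of 0.486.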

Other observations

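The neighbourhood of HSPA1A was also low. Of 42 other protein-coding genes within 250 kb of it on chromosome 6, 34 (81.0%) had fewer than 10 counts in every library, against 27.5% of 18869 protein-coding genes in all. Among them LSM2, which encodes a subunit of an RNA-binding ring used in every cell, had 0 counts in every library, and CLIC1, a widely expressed chloride channel protein, had 2, 1, 0 and 0. Of 15 protein-coding genes within 250 kb of DNAJA3 on chromosome 16, 5 (33.3%) had fewer than 10 counts in every library, with NMRAL1 and CORO7 at 0 and HMOX2 (a constitutive heme oxygenase) at 4, 2, 0 and 2. The low counts of HSPA1A, HSPA1B and HSPA1L thus came with low counts of many genes nearby, while the share near DNAJA3 was close to that of all genes. The cause was not tested.

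HSPB2 had 0, 4, 0 and 0 counts, and 84.6% of the 50-base stretches of its transcripts occur in another gene (the HSPB2-C11orf52 read-through). Over 73 members the median share of such stretches was 1.19%, with 13 members over 10% and 21 at 0.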
